A study of Mus musculus with 6 samples.

Results

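The data analysed here describe 9 genes of neutral and large amino acid transport in regulatory T (Treg) cells with and without Batf, which belongs to the AP-1 transcription factors. The genes were chosen by name, as solute carriers that move leucine, glutamine and related amino acids across the plasma membrane. This choice was made with earlier results of these data known. Each gene was read from the probe sets annotated to that gene alone. All 9 were found, with 17 probe sets among the 34945 that have a single gene, and they are 9 of the 18193 genes tested. The cells were CD4+ cells carrying human CD2 as a reporter of Foxp3, the factor that defines Treg cells, from Batf-/- mice (FoxP3hCD2.Batf-/-). They were compared with the same cells from Batf+/+ mice (FoxP3hCD2.Batf+/+). Both groups were taken from the lymph nodes and spleen of C57BL/6 animals, carried the reporter, were untreated and were not cultured, with 3 arrays for each genotype. The labels give neither the age of the mice nor whether animals were pooled, and the genotype is that of the whole mouse, so other cells of the animals carry it too.

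T cells that begin to grow draw amino acids from their surroundings through a small set of carriers. Slc7a5 (LAT1) exchanges large neutral amino acids such as leucine for glutamine and works only when bound to the heavy chain Slc3a2 (CD98), which also pairs with Slc7a6 and Slc7a7. Slc43a1 (LAT3) and Slc43a2 (LAT4) let leucine and other large neutral amino acids pass along their gradient without a heavy chain. Slc1a5 (ASCT2), Slc38a1 (SNAT1) and Slc38a2 (SNAT2) depend on sodium and bring in glutamine, alanine and other small neutral amino acids. Leucine and glutamine entry is known to feed the growth kinase complex mTORC1 in T cells.

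Levels are given on a log2 scale on which the middle Batf+/+ array of each probe set is 0, so they give differences between genotypes and not how abundant a transcript was. A level of one gene can therefore not be set against that of another. With 3 arrays a genotype precision is limited, and because the labels do not say that the arrays came from separate mice, the p-values rest on a spread between arrays that may be technical. Batf had levels of -3.13, -3.16 and -2.37 in Batf-/- cells against -0.13, 0 and 0.14 in Batf+/+ cells, so its 1 probe set followed the labels on all 6 arrays. Where it lies relative to the deletion was not analysed here. Markers of Treg and T cells (11 of 12 listed were measured) summed to between -2.83 and -2.26 in Batf-/- cells and between -0.39 and 0.28 in Batf+/+ cells, where the neuropilin Nrp1 was the 1 member that fell past the threshold (log2 difference -1.11 ± 0.09 SE, limma adjusted p = 0.00059). In 6 of the 11 the Batf-/- arrays lay below the Batf+/+ arrays without overlap, against 1191 of all 18193 genes. Nrp1 and Foxp3 were among these 6, and in 1 of the 11 they lay above, against 1000 of all genes. Nrp1 and the Ikaros factor Ikzf2 (-0.51 ± 0.10 SE, limma adjusted p = 0.0526) had the largest differences, Foxp3 itself had one of -0.12 (adjusted p = 0.892), and the IL-2 receptor chain Il2ra was the member above (0.21, adjusted p = 0.394). Ikzf2 passed with array weights (adjusted p = 0.0140) and with the median of its probe sets (0.0439), and not under the other alternatives (0.0533 to 0.298). Ikzf2, Foxp3 and Il2ra are named after their values were seen, and the part of this list in the results on transporters was not tested. Of the markers of B, myeloid, dendritic, neutrophil, red blood cell precursor, CD8 T, NK, and stromal and endothelial cells, 47 in all, 0 passed the threshold in limma and 4 had an unadjusted p below 0.05, all higher in Batf-/- cells. Of all genes, 1.14% passed and 7.69% had an unadjusted p below 0.05, 3.25% as higher and 4.44% as lower. The largest differences in these lists were 0.23 in Ms4a1, 0.18 in C1qa, 0.27 in Xcr1, 0.22 in Csf3r, -0.21 in Alas2, 0.04 in Cd8b1, 0.41 in Eomes and 0.34 in Pecam1, in the order of the lists, and their part in the results below was not tested. The summed levels of the markers overlapped between the genotypes in each of these 8 lists, with the widest range in myeloid markers, -1.31 to 3.64 in Batf-/- cells and -0.46 to 1.62 in Batf+/+ cells. Since values were centred, whether any marker was expressed could not be read.

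Among the 9 transporters, Slc43a1 rose in Batf-/- Treg cells and the other 8 did not pass the test. Slc43a1 was 2.46-fold higher (95% confidence interval 1.92 to 3.14) and Slc7a5 was 1.23-fold higher without passing the threshold, while the remaining 7 genes lay between 1.13-fold lower (Slc1a5) and 1.08-fold higher (Slc38a2). So 1 of 9 was called, at a limma adjusted p below 0.05 over all genes, and that 1 was higher. In this comparison 1.14% of all genes were called, 0.313% as higher and 0.83% as lower. The 9 were chosen with earlier results of these data known, so counts and shares are set side by side as a description. The arrays of the genotypes did not overlap in 2 of the 9 genes, both higher in Batf-/- cells, against 12% of all genes in either direction and 5.5% as higher. The same 2 genes had an unadjusted p below 0.05, against 7.69% of all genes, of which 3.25% were higher and 4.44% lower. Tested one by one, 1 of the 17 probe sets was called, against 0.713% of all 34945. The median log2 difference was -0.02 over the 9 genes and 0.0047 over all genes. In the bulk RNA of a sorted population, a change in the share of cells that use a gene and a change in RNA per cell cannot be told apart.

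**Figure D1:**
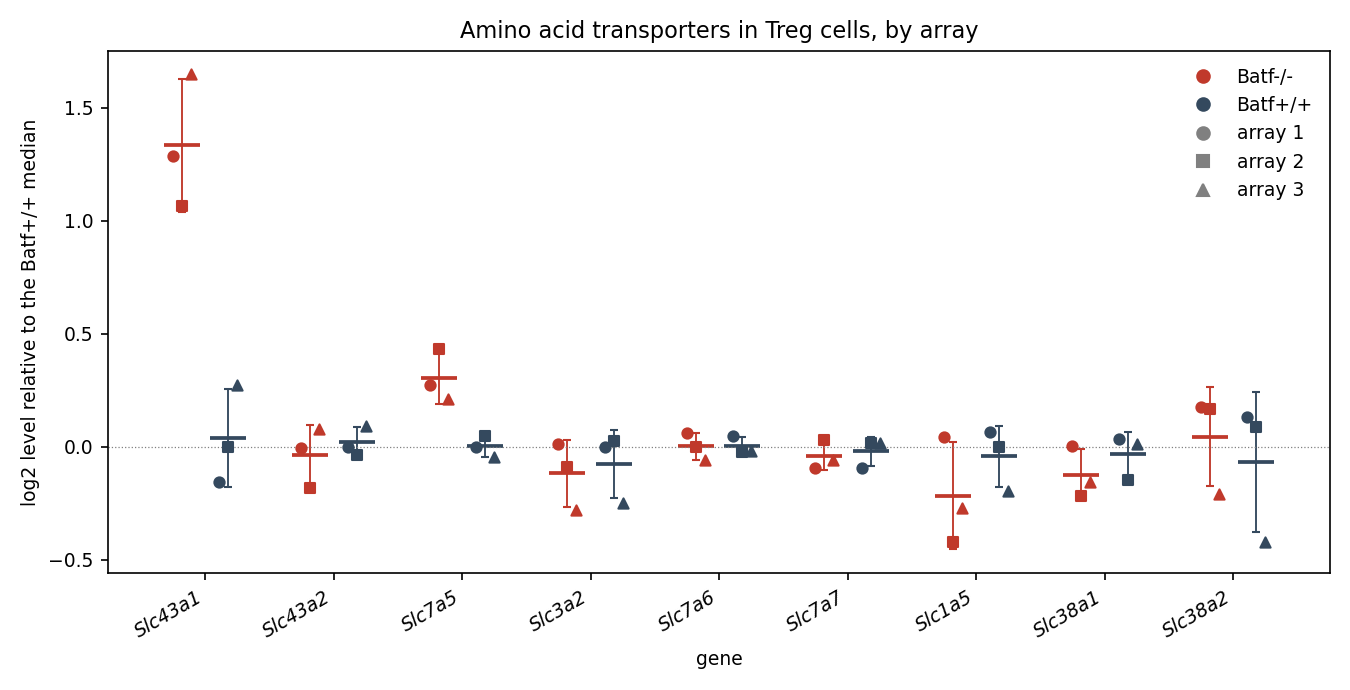
Log2 level relative to the Batf+/+ median (vertical axis) of the 9 transporter genes on each array, with Batf-/- in red left of Batf+/+ in dark blue. Bars are means, error bars are SD (n = 3 arrays), and the marker shape gives the array number. The Batf-/- arrays lie between 1.07 and 1.65 for Slc43a1, above the Batf+/+ arrays, and between 0.21 and 0.43 for Slc7a5, while in the other 7 genes the genotypes overlap.

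The uniporter Slc43a1 had levels of 1.29, 1.07 and 1.65 on Batf-/- arrays 1, 2 and 3, against -0.16, 0 and 0.27 on Batf+/+ arrays 1, 2 and 3. The lowest Batf-/- array was thus well above the highest Batf+/+ array, and within each genotype array 3 was the highest. Its mean was 1.33 ± 0.29 in Batf-/- cells and 0.04 ± 0.22 in Batf+/+ cells (SD, n = 3 each), which gave a log2 difference of 1.30 ± 0.16 (SE; adjusted p = 0.00567 in limma). By size of increase it ranked 13 of the 18193 genes, called or not. Between arrays of the same number the difference was 1.45, 1.07 and 1.38. It has 1 probe set, so no other part of the transcript was measured. When every probe set was tested on its own, this probe set had an adjusted p = 0.0160. Leaving out Batf+/+ array 1 took it to 0.0911 and leaving out Batf+/+ array 2 to 0.0886, with log2 differences of 1.20 and 1.28. In the fit over genes it passed under each of the 13 alternatives run, with adjusted p values from 0.0019 to 0.0349.

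Its close relative Slc43a2, which carries the same kinds of amino acids, did not pass the test. Its levels were 0.00, -0.18 and 0.08 on Batf-/- arrays and 0, -0.04 and 0.09 on Batf+/+ arrays. The genotypes overlapped, with a log2 difference of -0.05 ± 0.09 (SE) and a 95% confidence interval of -0.26 to 0.15, which lies wholly below the interval of 0.94 to 1.65 for Slc43a1. Of its 3 probe sets, 1 had Batf-/- levels of -0.08, -0.24 and -0.11, below Batf+/+ levels of 0, 0.01 and -0.02, with an adjusted p = 0.898 over all probe sets (limma). The other 2 probe sets differed by -0.01 each, with overlapping arrays. Array by array, Slc43a1 minus Slc43a2 was 1.29, 1.25 and 1.57 in Batf-/- cells and -0.16, 0.04 and 0.18 in Batf+/+ cells. This within-array difference was 1.35 larger in Batf-/- cells (exact two-sided permutation p = 0.1, 0.2 after adjustment over 4 pairs of transporters), and p = 0.1 is the smallest that 3 arrays against 3 can give.

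To show the DNA at the start of the gene that rose beside that of its relative that did not pass the test, the promoter windows of both genes are printed here, from 250 bases before to 50 bases after each annotated start, 5′ to 3′ on the gene's strand (RefSeq, GRCm38.p6). Slc43a1 has 1 annotated start, chr2:84840073-84840372 (+), and Slc43a2 has 2, chr11:75531444-75531743 (+) and chr11:75531862-75532161 (+). Capitals mark the match found.
Slc43a1: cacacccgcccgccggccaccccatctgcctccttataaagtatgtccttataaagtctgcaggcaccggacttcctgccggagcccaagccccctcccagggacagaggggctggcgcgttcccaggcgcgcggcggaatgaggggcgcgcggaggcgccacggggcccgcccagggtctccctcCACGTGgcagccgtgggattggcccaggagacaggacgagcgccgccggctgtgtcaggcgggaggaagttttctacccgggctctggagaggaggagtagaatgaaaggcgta
Slc43a2, start at the lower coordinate: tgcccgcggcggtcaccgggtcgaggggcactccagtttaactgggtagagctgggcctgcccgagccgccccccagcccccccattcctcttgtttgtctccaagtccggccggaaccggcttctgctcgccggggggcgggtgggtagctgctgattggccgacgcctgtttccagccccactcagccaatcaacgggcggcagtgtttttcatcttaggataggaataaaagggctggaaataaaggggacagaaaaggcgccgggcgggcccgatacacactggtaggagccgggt
Slc43a2, start at the higher coordinate: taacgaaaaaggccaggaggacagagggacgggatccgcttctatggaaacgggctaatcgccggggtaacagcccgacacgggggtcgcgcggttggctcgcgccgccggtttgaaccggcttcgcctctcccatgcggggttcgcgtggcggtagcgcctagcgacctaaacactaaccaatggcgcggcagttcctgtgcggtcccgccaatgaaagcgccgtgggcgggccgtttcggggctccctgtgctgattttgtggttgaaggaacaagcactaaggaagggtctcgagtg
The motifs below were searched on both strands.
The AP-1 motif TGANTCA, which Batf dimers with Jun are known to bind, was in 0 of the 12 windows of the 6 transporter genes that had one and in 7.81% of all 32851 windows of this length. Some windows of Slc7a6 and of Slc7a7 overlap, and so few windows cannot show whether the motif is rarer in these genes. The E-box CACGTG, a site known for MYC and related factors, had 1 match in the Slc43a1 window, starting 64 bases before the start site, and none in the other 11, against 7.15% of all windows. The core of the amino acid response element, TGATGNAA, known from genes induced by ATF4, was in 2 of the 5 Slc7a7 windows, which overlap each other, and in 3.97% of all windows. The motifs do not share letters in these windows. A match is only a stretch of letters, and its absence from these windows leaves the rest of each gene unread. Slc7a5, Slc1a5 and Slc38a1 were not searched.

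Slc7a5, the exchanger that carries leucine into activated T cells, was higher on every Batf-/- array than on any Batf+/+ array, yet did not pass the threshold. Its levels were 0.27, 0.43 and 0.21 in Batf-/- cells, against 0, 0.05 and -0.05 in Batf+/+ cells. The log2 difference was 0.30 ± 0.08 (SE; 95% confidence interval 0.12 to 0.49; adjusted p = 0.214 in limma), and 4.19% of all genes differed by at least as much. It was not called under any of the 13 alternatives, with log2 differences from 0.24 to 0.35. The adjusted p values in limma ran from 0.0966, with the replicate block, to 0.876. Slc7a5 also has 1 probe set.

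Slc3a2, the heavy chain without which Slc7a5 does not reach the cell surface, did not show this separation. It had levels of 0.01, -0.09 and -0.28 in Batf-/- cells and 0, 0.02 and -0.25 in Batf+/+ cells. The genotypes overlapped and array 3 was the lowest of each, and the log2 difference was -0.04 ± 0.11 (SE; adjusted p = 0.9999 in limma). Its interval of -0.29 to 0.20 overlaps that of Slc7a5. Within arrays, Slc7a5 minus Slc3a2 was 0.26, 0.52 and 0.49 in Batf-/- cells against 0, 0.02 and 0.20 in Batf+/+ cells. The values did not overlap, and the difference of 0.35 had an exact two-sided permutation p = 0.1, or 0.2 adjusted over the 4 pairs.

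Slc7a6 and Slc7a7, the light chains that swap arginine and lysine for neutral amino acids and also need Slc3a2, lay closest to 0 of all members. Slc7a6 had levels of 0.06, 0.00 and -0.06 in Batf-/- cells and 0.05, -0.02 and -0.02 in Batf+/+ cells, a log2 difference of 0.00 ± 0.07 (SE, 95% confidence interval -0.17 to 0.17). Slc7a7 had levels of -0.09, 0.03 and -0.06 in Batf-/- cells and -0.10, 0.02 and 0.01 in Batf+/+ cells, a log2 difference of -0.02 ± 0.08 (95% confidence interval -0.19 to 0.15). In both genes the genotypes overlapped, and the 4 probe sets lay between -0.03 and 0.02. As ratios of Batf-/- to Batf+/+ cells the intervals ran from 0.891 to 1.12 in Slc7a6 and from 0.875 to 1.11 in Slc7a7. Slc7a6 minus Slc7a7 differed by 0.02 between the genotypes (exact two-sided permutation p = 0.5, adjusted p = 0.6).

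**Figure D2:**
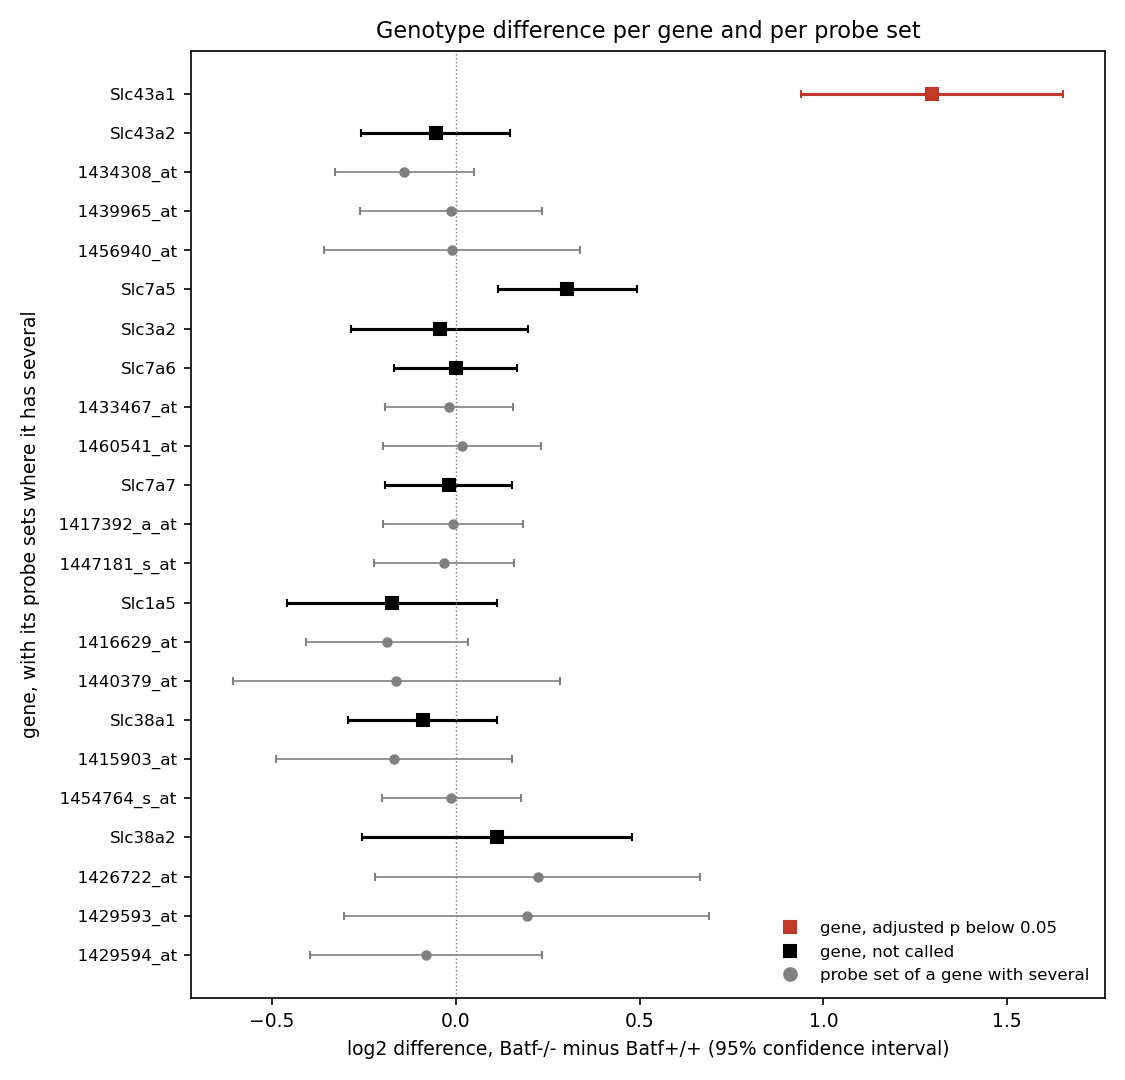
Log2 difference, Batf-/- minus Batf+/+ (horizontal axis), of each gene (squares, red where called) and of the probe sets of genes that have several (grey circles). Bars are 95% confidence intervals from limma with 3 arrays per genotype. Slc43a1 at 1.30 and Slc7a5 at 0.30 are the 2 genes whose interval lies above 0, and the interval of each other gene and of its probe sets includes 0.

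Of the carriers that depend on sodium, Slc1a5, a main route of glutamine into T cells, had the largest difference downward. Its levels were 0.04, -0.42 and -0.27 in Batf-/- cells against 0.07, 0 and -0.19 in Batf+/+ cells. Batf-/- array 1 lay among the Batf+/+ arrays, so the genotypes overlapped, and the log2 difference was -0.17 ± 0.13 (SE, 95% confidence interval -0.46 to 0.11, limma adjusted p = 0.928). Its 2 probe sets had nearly equal mean differences, -0.19 and -0.16, but not on each array: on Batf-/- array 1 they read -0.20 and 0.29. The adjusted p values over all probe sets were 0.835 and 0.989. Without Batf-/- array 2 the log2 difference of the gene was -0.07 and without Batf-/- array 1 it was -0.30, and neither passed the threshold.

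Slc38a1 and Slc38a2 sit in the same subfamily and lay on opposite sides of 0, both within the spread of their arrays. Slc38a1 had levels of 0.00, -0.22 and -0.16 in Batf-/- cells and 0.03, -0.15 and 0.01 in Batf+/+ cells, a log2 difference of -0.09 ± 0.09 (SE; adjusted p = 0.991 in limma). Slc38a2, which cells are known to induce when amino acids run short, had levels of 0.18, 0.16 and -0.21 in Batf-/- cells and 0.13, 0.09 and -0.42 in Batf+/+ cells, a log2 difference of 0.11 ± 0.16 (adjusted p = 0.9999). Array 3 was the lowest in both genotypes. Between arrays of the same number Slc38a2 differed by 0.04, 0.08 and 0.21, so Batf-/- was the higher at each number. With the replicate block in limma the SE was 0.07 and the adjusted p 0.566. The difference was -0.07 when Batf+/+ array 3 was left out. Of its 3 probe sets, 2 gave 0.22 and 0.19 and the third gave -0.08, with overlapping arrays in each. Slc38a1 differed by -0.03, -0.07 and -0.17 between arrays of the same number, so Batf-/- was the lower at each number. With the replicate block in limma its adjusted p was 0.641. Slc38a1 minus Slc38a2 differed by -0.20 between the genotypes (exact two-sided permutation p = 0.6, adjusted p = 0.6), in a test that does not use the numbers. Within numbers 1, 2 and 3 this difference was -0.08, -0.15 and -0.38, all of one sign, and it was not tested by number.

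**Figure D3:**
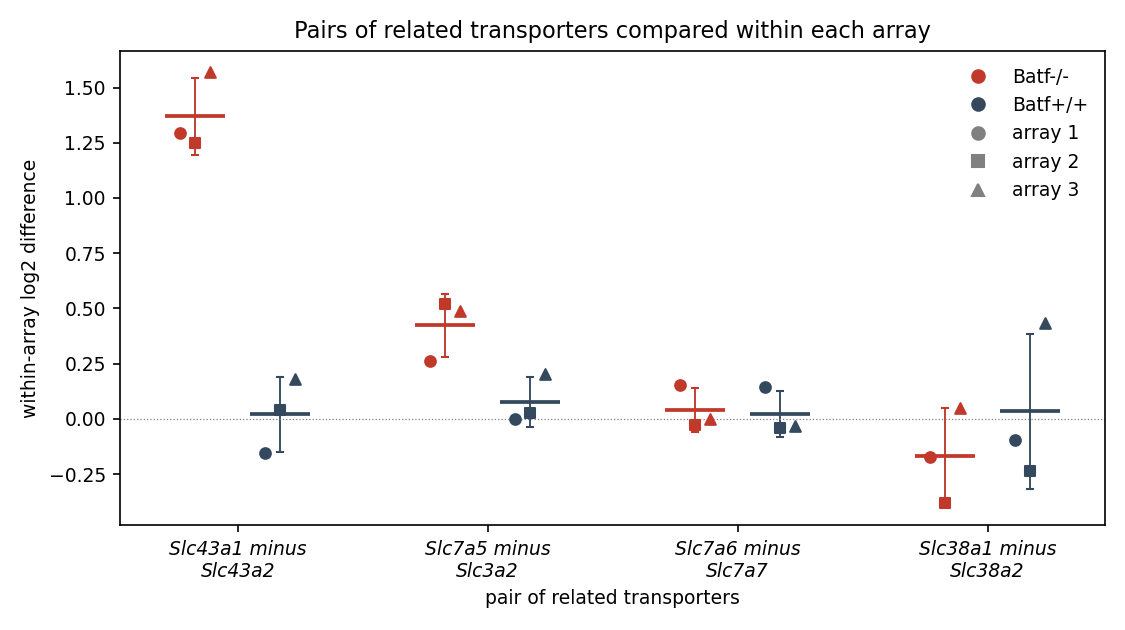
Difference in log2 level between 2 related transporters on the same array (vertical axis), Batf-/- in red left of Batf+/+ in dark blue, with means and SD (n = 3 arrays) and the marker shape giving the array number. Batf-/- arrays stand apart from Batf+/+ arrays for Slc43a1 minus Slc43a2 (means 1.37 and 0.02) and for Slc7a5 minus Slc3a2 (0.42 and 0.08), and overlap in the other 2 pairs.

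Ordered by log2 difference, the genes ran from Slc1a5 through Slc38a1, Slc43a2, Slc3a2, Slc7a7, Slc7a6 and Slc38a2 to Slc7a5 and Slc43a1. Each neighbour in this order up to Slc7a5 had a 95% confidence interval that overlapped the next, and the intervals of Slc7a5 and Slc43a1 did not overlap. Slc43a1 also lay apart from the other members in size: 0.209% of all genes had a difference at least as large, against 4.19% for Slc7a5, 13.6% for Slc1a5, 28.5% for Slc38a2, 37.6% for Slc38a1, 57.4% for Slc43a2, 64.5% for Slc3a2, 83.9% for Slc7a7 and 99.8% for Slc7a6.

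**Figure D4:**
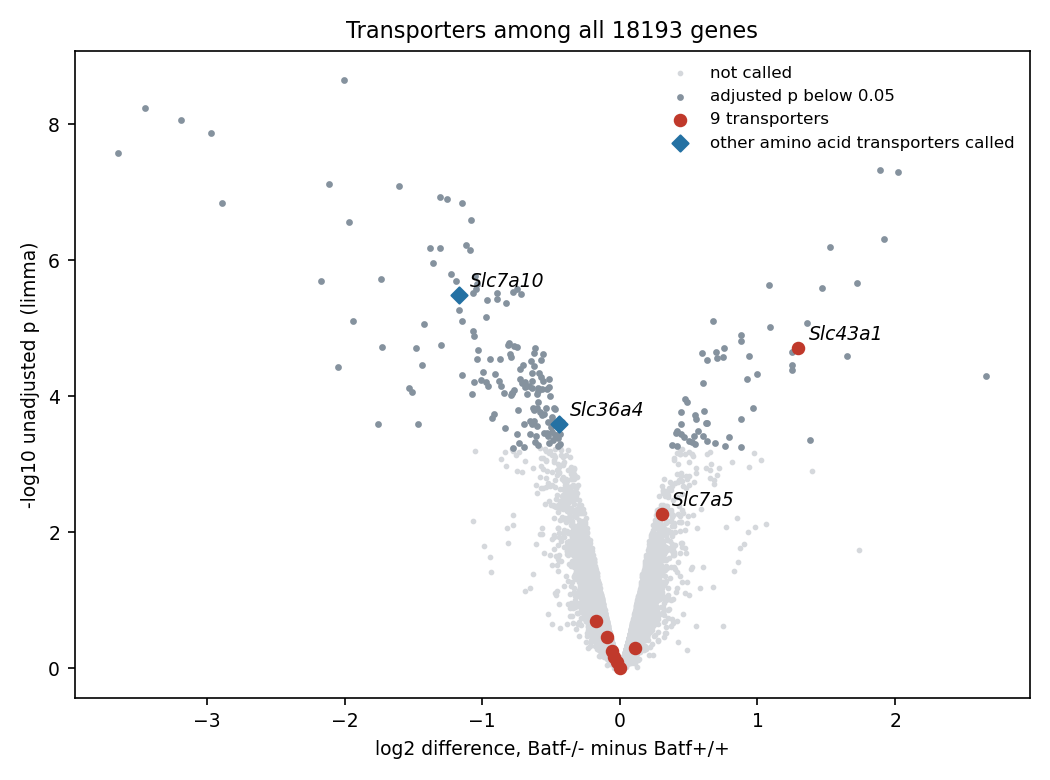
Log2 difference, Batf-/- minus Batf+/+ (horizontal axis), against -log10 of the unadjusted limma p (vertical axis) for all 18193 genes, with called genes in dark grey, the 9 transporters as red circles and 2 other amino acid transporters that were called as blue diamonds. Slc43a1 lies among the called genes on the right, Slc7a5 lies below the called genes, among those not called, and the other 7 transporters near the origin.

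Among amino acid carriers outside the 9, Slc7a10 and Slc36a4 fell in Batf-/- cells and none of those listed passed the threshold as higher. Slc7a10 (Asc-1), a light chain for small neutral amino acids that pairs with Slc3a2 like Slc7a5 does, was 2.24-fold lower. Its levels were -1.32, -0.89 and -1.24 in Batf-/- cells against -0.02, 0 and 0.08 in Batf+/+ cells, a log2 difference of -1.17 ± 0.11 (SE; adjusted p = 0.00155 in limma). Slc36a4 (PAT4), of a family of carriers for small amino acids such as proline, was 1.36-fold lower. Its levels were -0.44, -0.38 and -0.52 in Batf-/- cells against 0.04, -0.05 and 0 in Batf+/+ cells, a log2 difference of -0.44 ± 0.07 (adjusted p = 0.0285). The genotypes did not overlap in either gene, each of which has 1 probe set. The call of Slc36a4 was lost when any 1 of the 6 arrays was left out (adjusted p from 0.0692 to 0.126, the highest without Batf+/+ array 1) and after quantile normalization (0.217).

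The rest of these carriers gave few differences. Of 12 other members of the SLC7 family and its heavy chains 1 was called as lower and 0 as higher, with a median log2 difference of 0.04. At an unadjusted p below 0.05 there were 1 higher and 1 lower, against 7.69% of all genes. The higher was the heavy chain Slc3a1, named after its value was seen (0.38 ± 0.13 SE, limma adjusted p = 0.416). Its arrays overlapped between the genotypes. Of 14 measured members of the SLC43, SLC38 and SLC1 families 0 passed the limma threshold, with a median of 0.02 and 1 at an unadjusted p below 0.05. That gene was Slc38a6, which had the largest difference of its list (0.22 ± 0.08 SE, adjusted p = 0.413), with levels of 0.16, 0.14 and 0.22 in Batf-/- cells against 0.01, -0.14 and -0.01 in Batf+/+ cells. Of 21 carriers of the SLC6, SLC16, SLC25 and SLC36 families 1 fell and 0 rose, with a median of 0.04. Over these 47 carriers 2 were called, or 4.26%, against 1.14% of all genes, and the lists themselves were not tested.

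Genes that sense amino acids or answer to their lack did not pass the threshold. Of all genes 1.14% passed, and 3.25% were higher and 4.44% lower at an unadjusted p below 0.05. Of 32 measured genes of the mTORC1 pathway and its amino acid sensors 0 passed in limma, with 1 higher and 1 lower at an unadjusted p below 0.05 and a median log2 difference of -0.02. Sesn1, a sestrin that restrains mTORC1, had levels of 0.30, 0.29 and 0.41 in Batf-/- cells and 0.14, 0.01 and 0.00 in Batf+/+ cells, a log2 difference of 0.29 ± 0.08 (SE; adjusted p = 0.209 in limma). Tsc2, which also restrains mTORC1 and is named after its value was seen, lay the other way, with levels of -0.22, -0.24 and -0.42 in Batf-/- cells and 0.03, -0.06 and 0 in Batf+/+ cells, a log2 difference of -0.28 ± 0.08 (adjusted p = 0.258). In neither gene did the genotypes overlap. Over this list of 32 they did not overlap in 1 gene as higher and in 3 as lower, against 12% of all genes in either direction. Of 25 measured genes of the amino acid starvation response, which the kinase Eif2ak4 and the factor Atf4 are known to drive, 0 passed in limma, with 1 higher at an unadjusted p below 0.05 and a median of 0.02. Its largest difference was in Atf3, a factor of the same family, at 0.43 ± 0.48 (adjusted p = 0.999). Atf3 spread widely over the arrays of both genotypes, with levels of 1.84, 0.73 and -0.25 in Batf-/- cells and 0, 1.11 and -0.05 in Batf+/+ cells.

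Genes that use the imported amino acids gave a like picture, beside 1.14% of all genes that passed and 7.69% with an unadjusted p below 0.05. Of 19 measured cytosolic aminoacyl-tRNA synthetases, which load amino acids onto tRNA, 0 passed in limma and 0 had an unadjusted p below 0.05, with differences from -0.05 to 0.12, the largest in Farsb, a subunit of the phenylalanine enzyme. Of 17 measured genes of branched-chain amino acid and glutamine metabolism 0 passed in limma, with 1 at an unadjusted p below 0.05. That was Bcat2, the mitochondrial aminotransferase of leucine, isoleucine and valine, at 0.24 ± 0.09 (SE; adjusted p = 0.502 in limma), with levels of 0.29, 0.35 and 0.13 in Batf-/- cells and 0.13, -0.07 and 0 in Batf+/+ cells.

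Of MYC, known to raise Slc7a5 and Slc1a5 in activated T cells, and its partners, 0 of 11 passed in limma, with 2 higher and 1 lower at an unadjusted p below 0.05 and a median log2 difference of 0.05. Of all genes 1.14% passed, and 3.25% were higher and 4.44% lower at an unadjusted p below 0.05. The arrays did not overlap in 2 genes of the list as higher and in 2 as lower, against 12% of all genes. Mxd1, which pairs with Max and opposes MYC, came closest to the threshold in the list. Its levels were 0.46, 0.39 and 0.34 in Batf-/- cells against 0.05, 0.00 and -0.18 in Batf+/+ cells, without overlap, and the log2 difference was 0.44 ± 0.09 (SE; adjusted p = 0.0553 in limma). It passed with the replicate block (adjusted p = 0.0297) and with array weights (0.0340).

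**Figure D5:**
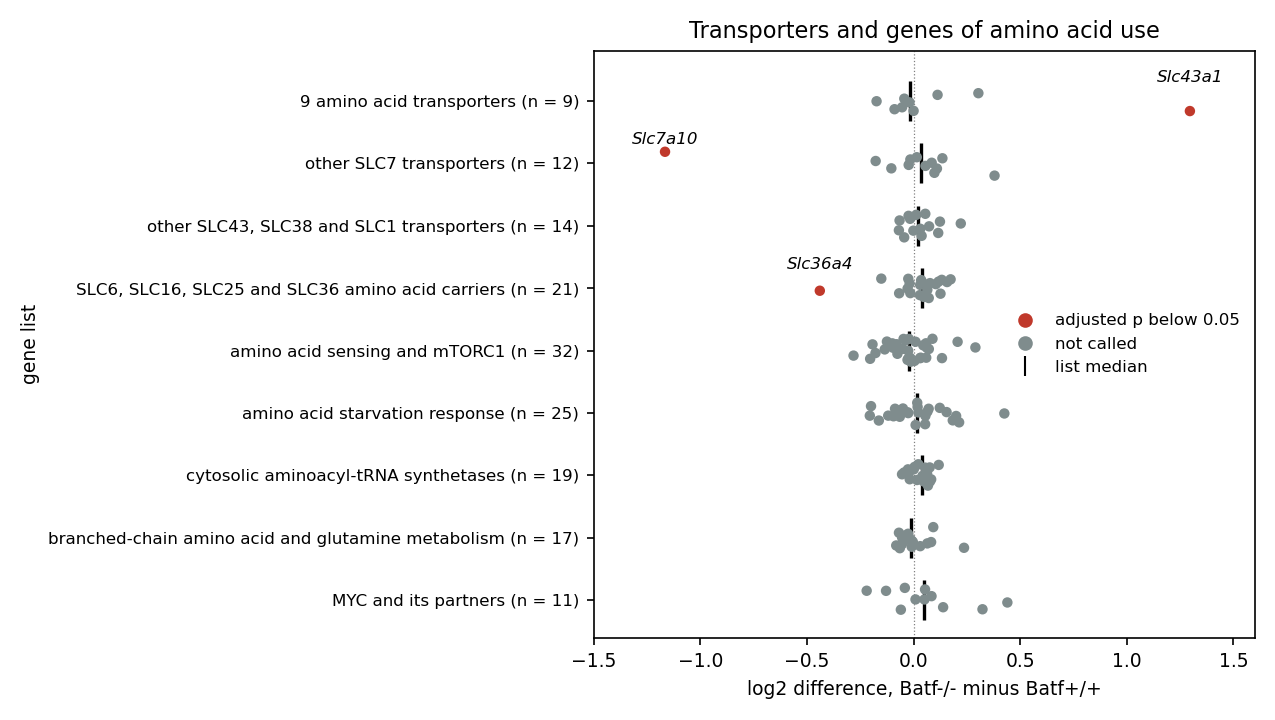
Log2 difference, Batf-/- minus Batf+/+ (horizontal axis), of each measured gene of the 9 transporters and of 8 lists of amino acid carriers, sensing, starvation response, use and MYC partners. Red points are called genes, grey points are not called, and black ticks are list medians, which lie between -0.02 and 0.05. The called genes are Slc43a1 at 1.30, Slc7a10 at -1.17 and Slc36a4 at -0.44.

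The genes whose levels over the 6 arrays lay closest to those of Slc43a1, by Euclidean distance, were Pparg, Prg4, Gm4951, E330021D16Rik and D930003E18Rik. The distances were 0.23, 0.37, 0.48, 0.63 and 0.64 log2 units. D930003E18Rik was not called (limma adjusted p = 0.0636). The others were called as higher, with adjusted p values from 0.00138 in E330021D16Rik to 0.0418 in Gm4951. Pparg, a nuclear receptor that binds fatty acids, had levels of 1.19, 1.14 and 1.59 in Batf-/- cells against -0.30, 0 and 0.16 in Batf+/+ cells, and like Slc43a1 it was highest on array 3 and lowest on array 2 among Batf-/- arrays. Prg4, which encodes the lubricant proteoglycan of joints, had levels of 1.46, 0.89 and 1.48 in Batf-/- cells against 0, -0.09 and 0.16 in Batf+/+ cells. This likeness rests on 6 arrays of 2 groups and is a description.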

How the data were processed

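Total RNA of the 6 Treg samples was turned into biotinylated cDNA and read on 3' expression arrays, per the labels' protocols. The deposited values come from RMA, per the submitters' processing notes, without a version or log base, and are taken here as log2 values. In all 45101 probe sets the median of the Batf+/+ arrays is exactly 0, so the authors also centred the values, a step no label describes. Dim probe sets could therefore not be filtered. Scan dates and slides were not analysed here.

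Genes were assigned by the platform annotation. It gives 1 gene for 34945 probe sets, of which 34741 matched RefSeq by Entrez identifier. Left out were probe sets with several genes (932), with none listed (9160) and controls (64). A gene's value is the mean of its probe sets. Batf-/- was compared with Batf+/+ by limma 3.58.1 under R 4.3.3 (lmFit and eBayes, genotype alone in the model), with Benjamini-Hochberg adjusted p over all genes, or over all probe sets. The fit was tested on simulated data with noise drawn independently for each gene and array. The simulated data thus lacked the shared deviations of arrays of the same number described below. Pairs of transporters were compared by exact permutation tests.

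Arrays of the same number deviated together (correlations 0.407, 0.154 and 0.413 over genes, each above 0.1). Between arrays of different numbers the correlations ran from -0.413 to 0.0491. The deviations were taken from the mean of each genotype, so the correlations are not independent. The numbers may therefore pair the arrays, which the labels do not state and which was not tested. The comparison by limma above and the permutation tests do not use the numbers. The replicate block, which does, was run as an alternative. Alternatives were another gene summary, probe sets tested singly, no probe sets of shared sequence, equal medians, quantile normalization, robust variance, array weights, the replicate block and each array left out. The named genes are the 9 members, the called members of each list (the largest difference where none was called) and the 5 genes nearest to Slc43a1. Members and lists were chosen with earlier results of these data known.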

Additional observations from a re-analysis of the deposited data

How the results depend on the processing

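Of the 9 transporters, Slc43a1 was called and the other 8 were not under each of the alternatives run over genes, and the number called stayed at 1. Slc3a2 and Slc7a7 gave no value without probe sets of shared sequence, since they have no others. The log2 difference of Slc43a1 ranged from 0.91 (quantile normalization) to 1.43 (without Batf-/- array 2). The replicate block changed no call among the 9, and outside them it added Mxd1 (0.44). With array weights Mxd1 also passed (0.42). Ikzf2 passed with array weights (-0.59) and with the median of its probe sets (-0.43). The alternatives for these genes and for Slc36a4 were added after seeing the data. Slc36a4 was not called after quantile normalization (-0.34) nor with any array left out (-0.47 to -0.40), so that the number of pathway genes called as lower went to 1.

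Over all genes 208 were called, 57 higher and 151 lower, and quantile normalization gave 87, 27 higher and 60 lower. With the replicate block 91 were higher. Leaving out 1 array gave 105 to 192 genes, with 31 to 51 higher and 73 to 141 lower, the fewest without Batf+/+ array 2 (105, of which 32 higher) and Batf+/+ array 1 (109, of which 78 lower). There were 36 higher without Batf-/- array 1, 32 higher without Batf+/+ array 3 and 94 lower without Batf-/- array 2. Fewer arrays were fitted there, and the cause of the other changes was not tested.

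The sign turned in results that were not called. Quantile normalization turned Slc7a6 (0.012), a Slc7a6 probe set (0.0042), a Slc43a2 probe set (0.0029) and a Slc38a1 probe set (0.027). Array weights turned Slc7a6 (0.0063), the same Slc38a1 probe set (0.016) and Cd8b1 (-0.028). With each array left out in turn, differences ranged from -0.11 to 0.019 in Slc43a2, from -0.13 to 0.036 in Slc3a2 and its probe set, from -0.031 to 0.030 in Slc7a6, from -0.057 to 0.0067 in Slc7a7 and from -0.065 to 0.24 in Slc38a2. Among probe sets they ranged from -0.11 to 0.073 and from -0.11 to 0.14 in Slc43a2, from -0.034 to 0.085 in Slc7a6, from -0.051 to 0.020 in Slc7a7, from -0.40 to 0.0038 in Slc1a5, from -0.055 to 0.014 in Slc38a1, and from -0.045 to 0.38 and from -0.18 to 0.049 in Slc38a2. The within-array difference of Slc7a6 and Slc7a7 ranged from -0.038 to 0.080, Atf3 from -0.11 to 0.94, C1qa from -0.036 to 0.35 and Cd8b1 from -0.040 to 0.13.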
